A study of Mus musculus with 8 samples.

Results

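Sox9 (ENSMUSG00000000567) was followed here as a single gene, 1 of the 9140 genes of a single-cell expression matrix. It was taken by its symbol, with earlier results of these data known. It lies on chromosome 11 from 112782224 to 112787760 on the forward strand of GRCm38. The GENCODE M21 annotation gives it 1 transcript of 3 exons and 0 overlapping genes. The cells were neural stem and progenitor cells taken from the dentate gyrus, the hippocampal region that keeps making neurons, of mouse embryos at embryonic day 18 per the labels. Female C57BL/6J mice had been mated to Kmt2d+/βgeo males, and embryos of both genotypes were used. The groups are Kmt2d+/βgeo, whose label names the allele Mll2Gt(RRt024)Byg in 1 copy of the gene for the histone methyltransferase KMT2D, and wild type, labelled with the strain C57BL/6J. All cells were first expanded with EGF and FGF2, and libraries were made in that state (day 0) and 2, 4 and 8 days after both factors were removed to induce differentiation.

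Sox9 encodes a DNA-binding protein of the SOX family, which shares an HMG box. In the developing central nervous system it is turned on in neuroepithelial and radial glial cells, is needed for neural stem cells and takes part in the switch from making neurons to making glia. Astrocytes and the neural stem cells of the adult dentate gyrus keep it, whereas neurons lose it and cells of the oligodendrocyte lineage lose it as they mature. Outside the nervous system it is best known from cartilage, where it works with Sox5 and Sox6 on collagen genes.

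There was 1 library for each genotype and day, 8 libraries and 30408 cells in all, with 2534 to 4900 cells each. Genotype could therefore not be told apart from culture, animal or library, no test was run between libraries, and all intervals below are 95% intervals that cover counting error only. Median total unique molecular identifiers (UMIs, each marking 1 captured RNA molecule) per cell ran from 14243 to 23219 in 7 libraries and were 7926 in Kmt2d+/βgeo cells at day 8. Between 0 and 10 cell barcodes were shared by any 2 libraries, and 2 by the day 4 pair. At day 4 the library labelled Kmt2d+/βgeo went against its label in Luzp2, a leucine-zipper gene, whose mean normalised count was 0.0502 there, against 0.287, 1.48 and 2.62 in the other libraries of that label and 0.00824 to 0.0575 in wild type. The day 4 pair was also the most alike, with an SD of 0.11 for the log2 ratio between genotype labels over all genes compared, against 0.34 to 0.49 on the other days. Every day 4 value given below for Kmt2d+/βgeo is that of this library, by its label only. Medians over the 8 libraries count the near-alike day 4 pair as 2.

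Sox9 was lowest in growing cells and highest at day 8 in both genotypes. The measure is the mean normalised count, in which every cell's values on the matrix genes sum to 8707.1. In Kmt2d+/βgeo it was 1.61 at day 0, 1.98 at day 2, 4.40 in the library labelled so at day 4, and 7.16 at day 8. In wild type it was 2.72, 2.93, 3.97 and 6.91 on the same days. The median cell gave the same course, from 1.14 to 5.69 in Kmt2d+/βgeo and from 2.06 to 6.60 in wild type between day 0 and day 8. Among all 9140 genes ordered by mean level, Sox9 moved from rank 930 to rank 167 in Kmt2d+/βgeo and from rank 489 to rank 168 in wild type.

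Summed over the cells of a library, Sox9 gave 8888 to 18508 UMIs, so counting error was small beside the differences. Per 10000 UMIs on the matrix genes it took 1.83 in Kmt2d+/βgeo at day 0, 2.36 in Kmt2d+/βgeo at day 2, 3.03 in wild type at day 0 and 3.49 in wild type at day 2. Above these stood wild type at day 4 with 4.76, the day 4 library labelled Kmt2d+/βgeo with 5.23, Kmt2d+/βgeo at day 8 with 7.48 and wild type at day 8 with 8.00. Neighbours in this order differed by a log2 ratio of 0.10 to 0.51, and each of the 7 counting intervals excluded 0. The spread between replicate libraries is unknown, so no neighbour is shown to differ beyond it. The top of the order changed with the measure, since the mean normalised count put Kmt2d+/βgeo at day 8 above wild type at day 8.

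**Figure D1:**
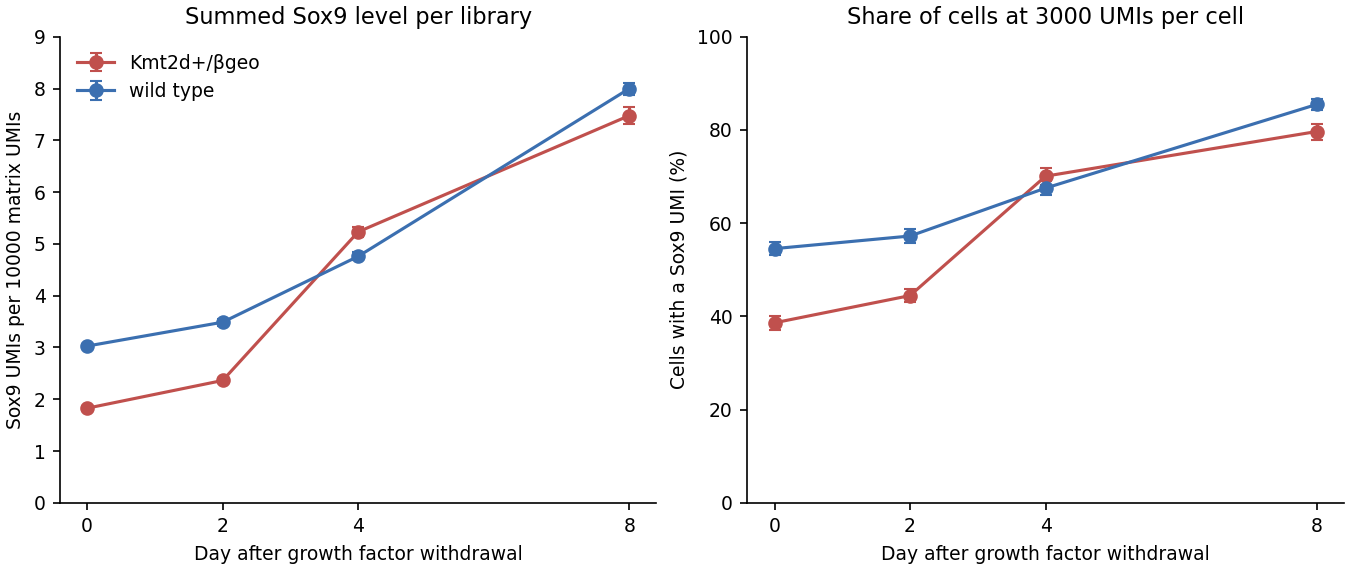
Left, Sox9 UMIs per 10000 UMIs on the matrix genes, with exact Poisson intervals. Right, the percentage of cells with at least 1 Sox9 UMI after each cell was thinned to 3000 UMIs, with exact binomial intervals. The x axes give days after growth factors were removed and each point is 1 library. Both genotypes climb to day 8 (7.48 and 8.00 UMIs per 10000), and Kmt2d+/βgeo starts below wild type (1.83 against 3.03).

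From day 0 to day 8 Sox9 rose in both genotypes, by an amount that depends on the scale. By mean normalised counts it rose 4.44-fold in Kmt2d+/βgeo, a log2 ratio of 2.15 (2.03 from summed UMIs, interval 1.99 to 2.08). In wild type it rose 2.54-fold, a log2 ratio of 1.35 (1.40 from summed UMIs, interval 1.37 to 1.43). The difference of mean log2 values, which gives high cells less weight, was 1.42 in Kmt2d+/βgeo and 1.17 in wild type, so the gap between the genotypes is narrower there. A log2 ratio of at least 1 in this comparison was reached by 19.0% of 7765 genes in Kmt2d+/βgeo and by 16.3% of 7737 genes in wild type. Sox9 lay further up, as 5.04% of genes had a higher ratio in Kmt2d+/βgeo and 10.6% in wild type. All later libraries of a genotype were set against the same day 0 library. At day 2 the log2 ratio was small, at 0.30 in Kmt2d+/βgeo and 0.11 in wild type, which 35.6% and 42.9% of genes exceeded. Summed UMIs gave 0.37 and 0.20 there, and mean log2 values 0.14 and 0.04. At day 4 it was 0.55 in wild type and 1.45 in the library with the Kmt2d+/βgeo label.

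Sox9 was lower in Kmt2d+/βgeo than in wild type on the first 2 days sampled. At day 0 the means of 1.61 and 2.72 gave a log2 ratio of -0.75 (-0.73 from summed UMIs, interval -0.77 to -0.69), and 3.22% of the 7117 genes compared differed by as much in either direction. The difference of mean log2 values was smaller, at -0.48, and at day 2 it was -0.37. At day 2 the ratio of mean normalised counts was -0.56 (interval from summed UMIs -0.60 to -0.52), and 8.72% of 7364 genes differed by as much. The day 4 libraries gave 0.15 (0.10 to 0.17 from summed UMIs), a comparison that rests on the doubtful label. At day 8 the direction was not settled, since the mean normalised count gave 0.05 and the summed UMIs gave -0.10 (-0.13 to -0.06). The other scales tried for day 8, thinned counts among them, gave values below 0, between -0.23 and -0.06.

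Depth moved with the day 8 values. In Kmt2d+/βgeo at day 8, the 757 cells with under 3000 matrix UMIs held 11.7 Sox9 UMIs per 10000 (11.2 to 12.2), cells with 3000 to under 6000 held 6.92 (6.74 to 7.09), and cells with 6000 or more held 6.10 (5.74 to 6.49). In wild type at day 8 the latter classes held 7.67 (7.42 to 7.93) and 8.07 (7.95 to 8.21). Kmt2d+/βgeo was thus lower than wild type within both depth classes that the libraries shared, and its shallowest cells stood above its deeper ones. The 4 wild-type cells under 3000 are not given. At day 0 the same classes held 2.18 and 1.81 in Kmt2d+/βgeo against 4.01 and 2.99 in wild type. At day 2 they held 1.72 and 2.45 against 2.81 and 3.60. The part of depth in the day 8 values was not tested.

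The share of cells with a Sox9 UMI followed the levels. To compare cells at one depth, each was thinned to 3000 UMIs on the matrix genes. This left out 23 cells of Kmt2d+/βgeo at day 0, 757 at day 8 and 4 of wild type at day 8. At least 1 Sox9 UMI was then seen in 38.6% of Kmt2d+/βgeo cells at day 0 (37.2 to 40.1), 44.5% at day 2 (43.1 to 45.9) and 79.7% at day 8 (77.9 to 81.3), with 70.1% (68.3 to 71.9) in the library labelled so at day 4. In wild type the shares were 54.5% (53.1 to 55.9), 57.2% (55.7 to 58.8), 67.5% (66.0 to 69.1) and 85.5% (84.2 to 86.7) on days 0, 2, 4 and 8. Before thinning they ran from 70.4% to 96.0%. The order of the 8 shares was that of the summed UMIs, and the intervals of neighbours overlapped for wild type at days 0 and 2 and for the day 4 pair.

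Cells with 4 or more thinned Sox9 UMIs made up 1.09% of Kmt2d+/βgeo and 3.75% of wild type at day 0, and 18.8% and 22.8% at day 8. Across cells of a library the variance of the thinned count was 1.37 to 1.45 times its mean in 7 libraries and 1.68 times in Kmt2d+/βgeo at day 8. A count of independent molecules at 1 common level would give a ratio near 1, so Sox9 varied somewhat more between cells than counting alone. The ratio was largest in the shallowest library. It depends on the mean, which ran from 0.56 thinned UMIs (Kmt2d+/βgeo at day 0) to 2.36 (wild type at day 8). The libraries are therefore not ranked by spread here.

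**Figure D2:**
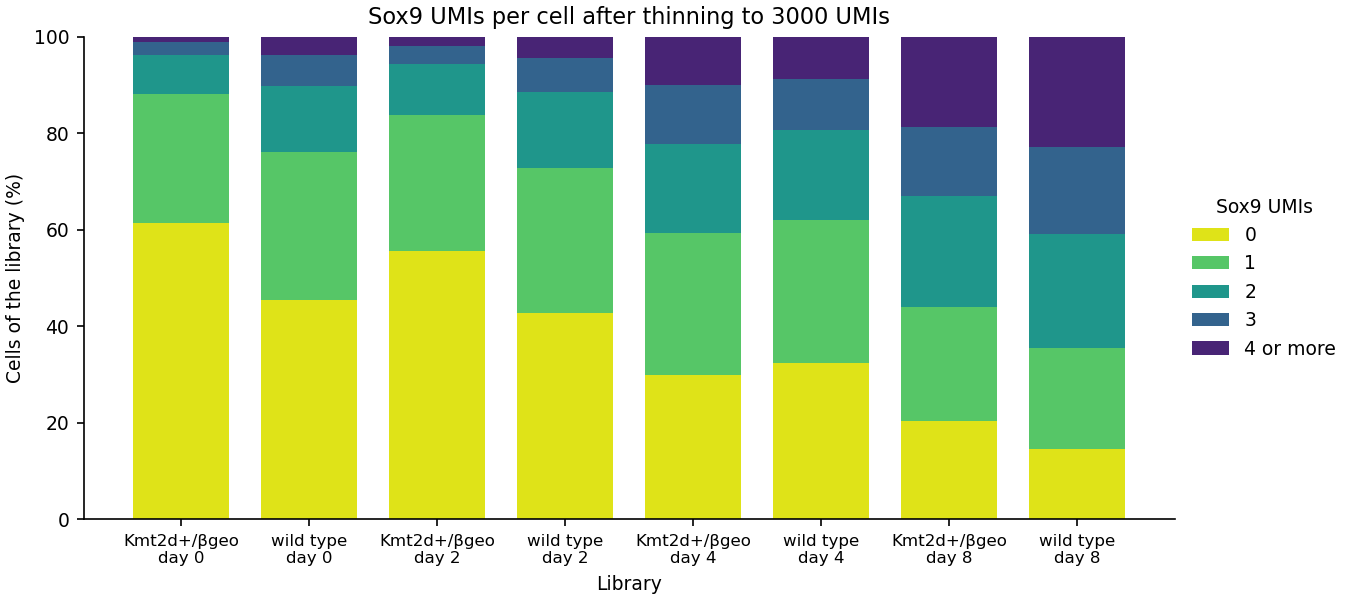
Each bar is 1 library and shows the percentage of its cells with 0, 1, 2, 3 or at least 4 Sox9 UMIs after thinning to 3000 UMIs per cell. Cells with none shrink from 61.4% to 20.3% in Kmt2d+/βgeo and from 45.5% to 14.5% in wild type between day 0 and day 8.

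No cells that lack Sox9 could be marked out as a measure of free RNA. Cells with at least 2 UMIs of Rbfox3, which encodes a nuclear protein of mature neurons, numbered 2 to 77 per library. In the day 4 library labelled Kmt2d+/βgeo, 62.3% of 77 such cells had a thinned Sox9 UMI (50.6 to 73.1), against 70.3% of the other cells, at median depths of 8520 and 8920 matrix UMIs. Wild type at day 4 gave 59.7% of 77 cells (47.9 to 70.8) against 67.7%, at depths of 7500 and 8000. Those shares lie well above the 36.0% to 40.3% of the cells of the same libraries with 3 or more UMIs of Olig2, described below. In the other 6 libraries these cells numbered 20 or fewer and the shares ran from 0% to 100%. In all 8 libraries the interval for these cells held the share of the other cells. With so few cells, not known to lack Sox9, these shares gave no measure of background. How much free RNA adds to the shares, or to the levels, was not tested.

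Across cells, Sox9 went with astrocyte genes on days 2 and 4 in both groups of libraries, less so in wild type at day 8, and hardly at day 0 or, as a list, in Kmt2d+/βgeo at day 8. Pearson's r of log2 values was taken over the cells of each library for 7421 genes with a mean normalised count of at least 0.1, and genes were ordered by the median r over the libraries. Highest came Mt3 (median r 0.36) and Mt2 (0.32), which encode zinc-binding metallothioneins, then Slc1a3 (0.30), the glial glutamate transporter, and Apoe (0.28), the lipid carrier that astrocytes secrete. After them stood the peroxide-reducing enzyme gene Prdx6 (0.28), Sparcl1 (0.27), which encodes a matrix protein secreted by astrocytes, and Dbi (0.26), whose product binds acyl-CoA. The protease inhibitor genes Cst3 (0.26) and Lxn (0.26) and the fatty acid desaturase gene Scd2 (0.26) completed the first 10. Over all genes the median r had a 1st percentile of -0.13, a median of 0.00 and a 99th percentile of 0.13.

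The lowest median r belonged to Olig2 (-0.31), which encodes the transcription factor that sets up the oligodendrocyte lineage. Next came H3f3a (-0.22), a histone H3.3 gene, and genes of protein synthesis, namely the elongation factor gene Eef1a1 (-0.21) and the ribosomal protein gene Rps3a1 (-0.20). Ptma (-0.21), which encodes a small acidic nuclear protein, the calcium sensor gene Ncald (-0.20), the ubiquitin gene Ubb (-0.20), the LIM-domain gene Lmo3 (-0.20) and the peroxide-reducing enzyme gene Prdx2 (-0.20) were also among the lowest 10. Several of these, Eef1a1 and Rps3a1 among them, have near-identical pseudogene copies, so their counts are uncertain.

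In growing cells these relations were weak. At day 0, 0 genes reached an r of 0.2 or -0.2 in either genotype. The highest there were Nr2f1 (0.18), a nuclear receptor gene of cortical patterning, in Kmt2d+/βgeo and Marcks (0.10), which encodes a membrane-bound kinase substrate, in wild type, and the lowest were Olig2 (-0.13) in Kmt2d+/βgeo and the splicing factor gene Srsf7 (-0.10) in wild type. These are the extremes of 7421 genes, whose 1st and 99th percentiles were -0.07 and 0.07 in Kmt2d+/βgeo and -0.06 and 0.05 in wild type. They were not tested, and nothing further is read from them. At day 2, 62 genes in Kmt2d+/βgeo and 75 in wild type had an r of at least 0.2, and the day 4 counts were 114 under the Kmt2d+/βgeo label and 89 in wild type. By day 8 they were down to 9 in Kmt2d+/βgeo and 26 in wild type. Median depth at day 0 was 11230 and 9401.8 matrix UMIs per cell, against 3972 to 8908 in the later libraries, and its part in these counts was not tested. Sox9 itself went with depth, at an r with matrix UMIs of 0.20 to 0.28 on days 2 and 4, 0.14 in wild type at day 8 and -0.14 in Kmt2d+/βgeo at day 8. On thinned counts, with all cells at 1 depth and fewer UMIs each, the median r was smaller, at 0.23 for Mt3, 0.16 for Slc1a3, 0.16 for Sparcl1, 0.12 for Lxn and -0.20 for Olig2.

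Mt3 shows the course. Its r with Sox9 was 0.07 in Kmt2d+/βgeo and 0.00 in wild type at day 0, then 0.38 and 0.40 on day 2, 0.47 and 0.44 on day 4, and 0.29 and 0.33 on day 8. Apoe followed it to day 4 but parted between the genotypes at day 8, where its r was -0.04 in Kmt2d+/βgeo and 0.28 in wild type. Dbi and Cst3 behaved alike at day 8, at 0.07 and 0.02 in Kmt2d+/βgeo against 0.33 and 0.19 in wild type. The Kmt2d+/βgeo library at day 8 was the shallower of the pair, and the part of depth in these values was not tested. Slc4a4, a bicarbonate transporter gene of astrocytes, was among the 3 highest at day 2 only, with 0.38 in Kmt2d+/βgeo and 0.41 in wild type. Without the day 4 libraries 5 of the first 10 genes stayed among the first 10 (Mt2, Mt3, Prdx6, Scd2 and Slc1a3), and Olig2 stayed among the lowest.

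**Figure D3:**
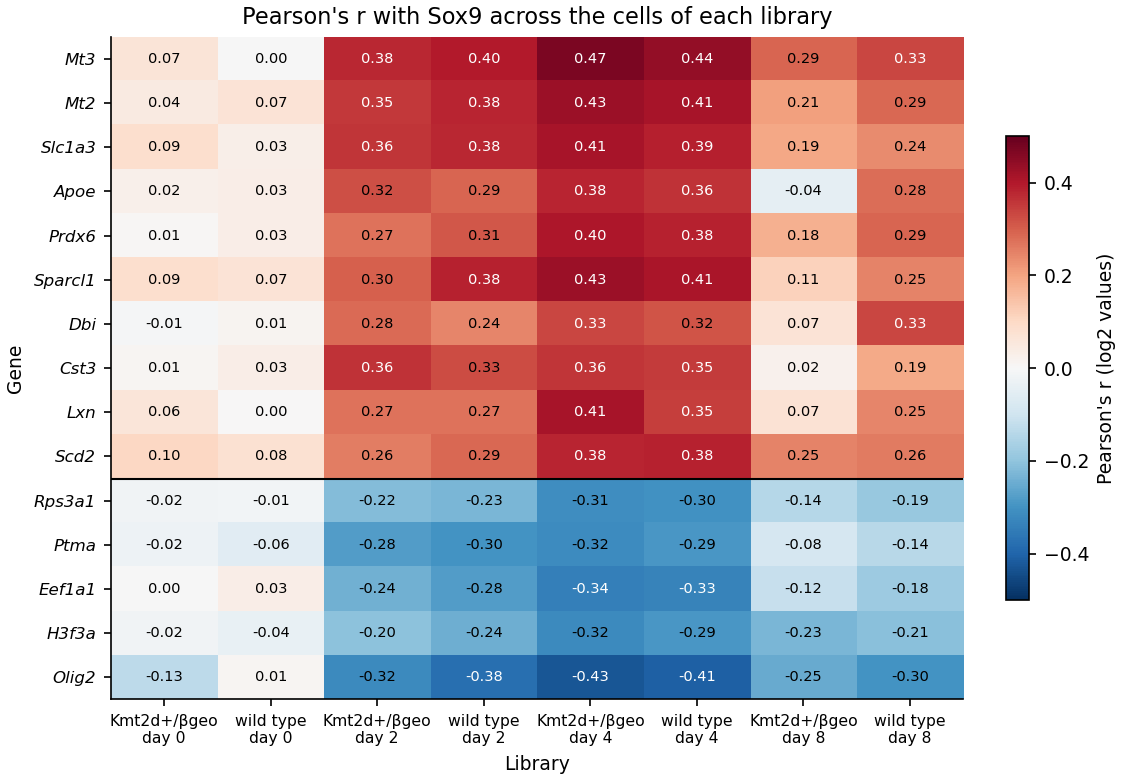
Pearson's r with Sox9 across the cells of each library (columns) for the 10 genes with the highest and the 5 with the lowest median r over the libraries (rows, divided by a line). Colour and printed value give r of log2 values. Both day 0 columns are pale, with Mt3 at 0.07 and 0.00, and the day 4 columns are the strongest, with Mt3 at 0.47 and 0.44 and Olig2 at -0.43 and -0.41.

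Counting cells by their Sox9 UMIs at 3000 UMIs gives the size of these relations. In the day 4 library labelled Kmt2d+/βgeo, cells with no Sox9 UMI held a mean of 26.6 Mt3 UMIs and cells with 3 or more held 41.0. In wild type at day 4 the means were 39.4 and 57.3. At day 0 they were 3.78 and 4.99 in Kmt2d+/βgeo and 3.84 and 4.34 in wild type. Gja1, the gap junction gene of astrocytes, went from 0.18 to 0.39 UMIs in wild type at day 2 and from 0.08 to 0.22 in Kmt2d+/βgeo. Vim, an intermediate filament gene of radial glia, hardly moved with Sox9 at day 2, with 28.0 and 27.7 UMIs in Kmt2d+/βgeo and 17.5 and 17.2 in wild type. At day 4 it went from 13.9 to 16.1 under the Kmt2d+/βgeo label and from 14.6 to 16.5 in wild type, and at day 8 from 27.0 to 30.6 in wild type and from 15 to 15.6 in Kmt2d+/βgeo. Egfr, the receptor of one of the withdrawn factors, ran the other way at day 4, from 1.20 to 0.82 UMIs under the Kmt2d+/βgeo label and from 1.12 to 0.73 in wild type.

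The relation of Sox9 to Olig2 was weak at day 0 and negative later. At day 0 the r between them was -0.13 in Kmt2d+/βgeo and 0.01 in wild type. With Kmt2d+/βgeo first, it was -0.32 and -0.38 on day 2, -0.43 and -0.41 on day 4, and -0.25 and -0.30 on day 8. In thinned cells at day 0, 2225 of 4857 wild-type cells had a UMI of both genes, and 1160 of 4308 Kmt2d+/βgeo cells did. Wild-type cells with an Olig2 UMI at day 0 had a Sox9 UMI in 53.9% of cases (52.3 to 55.4), against 58.4% (54.7 to 62.0) of cells without one. At day 2 the same shares were 49.9% (48.0 to 51.8) and 72.0% (69.6 to 74.4). In Kmt2d+/βgeo they were 37.2% (35.5 to 38.9) and 42.4% (39.5 to 45.2) at day 0, and 36.8% (35.0 to 38.6) and 54.1% (51.9 to 56.2) at day 2.

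Between day 0 and day 2, then, the share of cells with a Sox9 UMI was over 10 points higher among cells without an Olig2 UMI in both genotypes, and no higher among cells with one. Cells with 3 or more Olig2 UMIs were the poorest in Sox9 after day 0. Of these, 40.7% had a Sox9 UMI in wild type at day 2 and 36.0% at day 4, against 53.9% at day 0. In Kmt2d+/βgeo they stood at 34.6% at day 0 and 30.2% at day 2, and at 40.3% in the library labelled so at day 4. By day 8 such cells had become few, 84 in Kmt2d+/βgeo and 110 in wild type, and 58.3% (47.1 to 69.0) and 53.6% (43.9 to 63.2) of them had a Sox9 UMI. The share of all thinned cells with an Olig2 UMI went from 72.4% to 24.5% in Kmt2d+/βgeo and from 85.1% to 14.9% in wild type between day 0 and day 8. Cells with an Olig2 UMI were a little shallower before thinning than those without, with medians of 7060 and 7790 matrix UMIs in wild type at day 2.

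**Figure D4:**
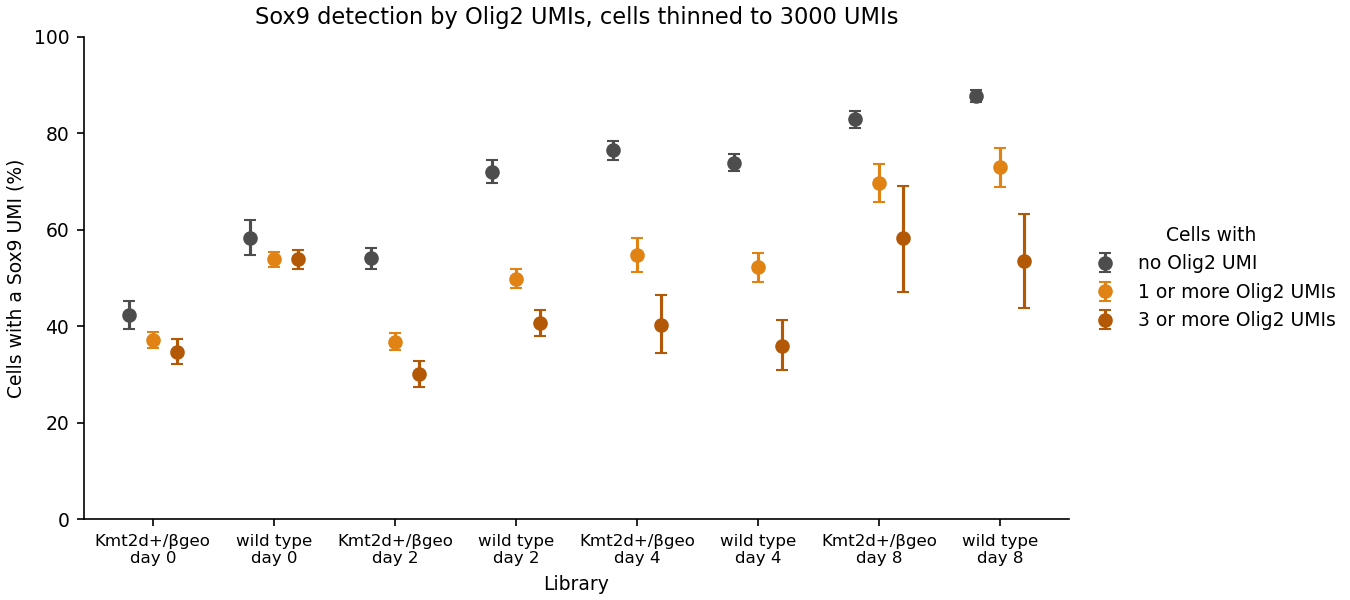
The percentage of cells with a Sox9 UMI in each library, for cells with no Olig2 UMI, with 1 or more and with 3 or more, all thinned to 3000 UMIs. Bars are exact 95% binomial intervals. The classes lie close at day 0 in wild type (58.4%, 53.9% and 53.9%) and apart from day 2 on (72.0%, 49.9% and 40.7% in wild type at day 2).

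In growing cells Sox9 varied with the cell cycle in wild type and little in Kmt2d+/βgeo. Each day 0 cell was placed on a circle by its angle in a plane of 2 principal components computed from cell-cycle genes, and the stretch from 0.25π to 1.5π was taken as S/G2/M. In wild type the mean normalised count of Sox9 was 2.32 in this stretch and 2.94 outside it, a log2 ratio of -0.34 (-0.37 to -0.28 from summed UMIs). After thinning, 50.2% (47.8 to 52.5) and 57% (55.2 to 58.8) of cells had a Sox9 UMI. In Kmt2d+/βgeo the means were 1.56 and 1.66, a log2 ratio of -0.09 (-0.14 to -0.02), and the thinned share was 38.6% in and outside the stretch. Median depths were 12900 and 8440 matrix UMIs in wild type, and 13900 and 9850 in Kmt2d+/βgeo. Depth thus went with position on the circle, and its part in these differences was not tested.

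Along the circle, Sox9 in wild type was lowest between 0.75π and 1π, at 1.84, where Top2a, the topoisomerase gene of S and G2 phase, stood at 10.4. Top2a was highest in the next eighth, between 1π and 1.25π, at 13.3, and there Sox9 stood at 2.32. Its highest mean was 3.04, between 1.75π and 2π, where Top2a stood at 0.43. In Kmt2d+/βgeo the means ran from 1.40 to 1.85 with no such dip, and this difference between the libraries was not tested. Kmt2d+/βgeo was lower than wild type in 8 of 8 eighths of the circle, by a log2 ratio of -0.27 between 0.75π and 1π to -1.09 between 0.25π and 0.5π.

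**Figure D5:**
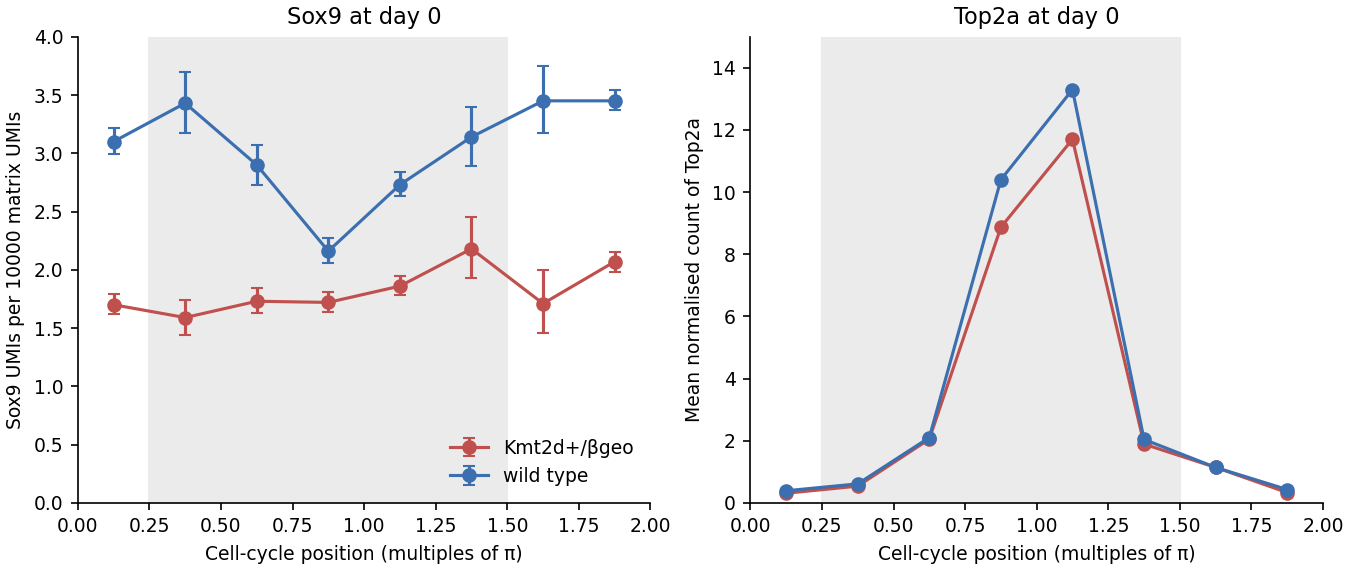
Left, Sox9 UMIs per 10000 matrix UMIs in each eighth of the cell-cycle circle at day 0, with exact Poisson intervals. Right, the mean normalised count of Top2a in the same cells. The x axes give position in multiples of π, the shaded band is the S/G2/M window, and each line is 1 library. Wild type dips to 2.16 between 0.75π and 1π and Kmt2d+/βgeo stays between 1.59 and 2.18.

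The relatives of Sox9 did not share its course. Of 18 SOX genes listed, the matrix rows used held 2 others, Sox5 and Sox6, partners of Sox9 in cartilage and regulators of glial lineages. Sox5 was lower at day 8 than at day 0, with a log2 ratio that fell at the limit of -1 in Kmt2d+/βgeo, which 13.9% of all genes reached, and stood at -0.78 in wild type, where 10.9% of genes reached the limit. Sox6 gave 0.62 and 0.33. Across cells their median r with Sox9 was 0.00 and -0.04. Sox2, Sox8 and Sox10 were not analysed here.

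Of 15 genes listed as targets of Sox9 in cartilage, 5 had rows in the expression matrix. Sox5 and Sox6, which are not genes of the cartilage matrix, were 2 of these. Col11a1, a fibrillar collagen gene, had a log2 ratio of 0.99 from day 0 to day 8 in Kmt2d+/βgeo and 1.08 in wild type. Col27a1, another collagen gene, had 1.83 and 0.77. Their median r with Sox9 across cells was 0.01 and -0.06. In Kmt2d+/βgeo 1 of 4 genes compared rose and 1, Sox5, fell, and in wild type 1 of 4 rose and 0 fell. These counts are too small to set apart from the all-gene shares (19.0% and 13.9%, and 16.3% and 10.9%). Those that rose were compared only through day 8, Col27a1 in Kmt2d+/βgeo (0.0621 to 0.221) and Col11a1 in wild type (0.0617 to 0.131).

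Astrocyte genes were higher after withdrawal, but on a course other than that of Sox9. Of the 20 genes listed, 12 were in the matrix, and their median log2 ratio from day 0 to day 8 was 1.13 in Kmt2d+/βgeo and 1.35 in wild type, against 0.11 and 0.04 over all genes. At day 2 it was already 1.04 and 1.43, where Sox9 stood at 0.30 and 0.11, and at day 4 it was 2.17 and 1.72, where Sox9 stood at 1.45 and 0.55. The median was lower at day 8 than at day 4 in both genotypes while Sox9 was higher. By mean normalised count, 12 of 12 genes were lower in Kmt2d+/βgeo at day 8 than in the library labelled so at day 4. Gja1 was nearly level there (2.311 at day 4 and 2.306 at day 8). Its share of cells with a thinned UMI was higher at day 8 (48.9% against 39.5%), so the count of 12 depends on the scale. In wild type 7 genes were lower and 5 higher, Apoe and Gja1 among the latter. The share over all genes was not computed for day 8 against day 4, so nothing particular to this list is read from these counts. From day 0 to day 8 in Kmt2d+/βgeo 6 rose and 1 fell, where 19.0% of all genes rose and 13.9% fell. In wild type 9 rose and 0 fell, against 16.3% and 10.9% of all genes. Gja1 had 3.83 in Kmt2d+/βgeo and 4.33 in wild type, Apoe 2.75 and 5.29, and Cst3 2.45 and 2.89. The glutamate transporter gene Slc1a2 had 2.06 and 1.09. Glul, the glutamine synthetase gene, had -1.45 in Kmt2d+/βgeo and -0.10 in wild type. The median r of the 12 genes with Sox9 was 0.03 in both genotypes at day 0, then 0.25 and 0.27 on day 2, 0.24 and 0.22 on day 4, and 0.02 and 0.10 on day 8. Gfap and Aqp4, defining genes of mature astrocytes, were not analysed here.

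Between genotypes at day 8 the astrocyte list had a median log2 ratio of -0.78, Kmt2d+/βgeo over wild type, while Sox9 had no settled direction. Its 12 genes ran from -1.73 for Glul to 0.43 for Slc1a2, with Acsl3, an acyl-CoA synthetase gene, at -1.58, Sparcl1 at -1.30, Apoe at -1.28 and Fgfr3 at -0.13. The Kmt2d+/βgeo library at day 8 was much the shallowest. At day 2, where median depths were 7565.7 and 7298.9 matrix UMIs, the list had a median of -0.79, and at day 0 of -0.28. Over all genes the medians were -0.04, -0.002 and 0.01 on days 0, 2 and 8. The part of depth in these values was not tested.

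Among genes that take part with Sox9 in gliogenesis, 11 of 17 were in the matrix, with a median log2 ratio from day 0 to day 8 of 0.18 in Kmt2d+/βgeo and 0.00 in wild type. In each genotype 1 rose and 1 fell, counts too small to set apart from the shares over all genes (19.0% up and 13.9% down in Kmt2d+/βgeo, 16.3% and 10.9% in wild type). Zbtb20, a zinc finger gene of hippocampal and astrocyte development, rose by 1.98 and 1.61, and Zeb1, an E-box repressor gene of progenitors, had -2.10 and -2.58. Nfia, a nuclear factor I gene known to act with Sox9, went from 5.45 to 10.1 in mean normalised count in Kmt2d+/βgeo (log2 ratio 0.89) and from 6.42 to 6.44 in wild type. Its median r with Sox9 was 0.05.

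The radial glia and progenitor list held 10 of 15 genes, with median log2 ratios of 0.24 and 0.56. In Kmt2d+/βgeo 3 rose and 2 fell, beside 19.0% and 13.9% of all genes, and in wild type 4 rose and 1 fell, beside 16.3% and 10.9%. Prom1, among those that rose, was compared only through day 8 (0.0238 to 0.144 in Kmt2d+/βgeo, 0.0167 to 0.369 in wild type). Msi1 in wild type was too (0.0987 to 0.80), so nothing is read from these counts. On the log2 scale Hopx, a homeodomain gene of quiescent dentate stem cells, rose by 3.82 and 3.01, and Msi1, an RNA-binding protein gene of stem cells, by 3.47 and 3.02. Tnc, the tenascin C matrix gene, had -7.58 and -6.04, and Fabp7, the radial glial lipid-binding protein gene, had -1.20 and -0.80. Tnc was compared only through day 0 (2.25 to 0.0117 in Kmt2d+/βgeo, 1.46 to 0.0222 in wild type), so its ratios rest on values near 0. The median r of Sox9 was 0.18 with Hopx and 0.10 with Fabp7.

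Of 13 oligodendrocyte lineage genes 3 were in the matrix, and 2 of them fell in each genotype, with 0 up, where 13.9% and 10.9% of all genes fell. Olig2 had log2 ratios of -1.90 and -3.15, and Bcan, a proteoglycan gene of glial precursors, had -2.22 and -2.38. Of 14 neuron genes 5 were in the matrix, 3 of which could be compared in Kmt2d+/βgeo and 2 in wild type. In Kmt2d+/βgeo 1 rose (Rbfox3, from 0.00536 to 0.113) and 0 fell, and in wild type 0 of the genes compared moved past either limit, where 19.0% and 16.3% of all genes rose. Rbfox3 was compared in Kmt2d+/βgeo only, since it passed the limit on low values there through day 8. In wild type it went from 0.0174 to 0.0472, so no contrast between genotypes is read from these counts. The median r with Sox9 was -0.05 for each of these lists.

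Counts of signalling genes are set beside the same all-gene shares, 19.0% up and 13.9% down in Kmt2d+/βgeo and 16.3% and 10.9% in wild type. Of 16 Notch pathway genes 7 were in the matrix, and 3 of 6 rose in Kmt2d+/βgeo and 3 of 7 in wild type, with 0 down and median log2 ratios of 0.84 and 0.92. The receptor gene Notch2 rose by 3.28 and 2.47, the ligand gene Dner by 2.22 and 1.96, and Notch1 had 0.67 and 0.32. Among those counted as up, Dner in Kmt2d+/βgeo (0.0933 to 0.433) was compared only through day 8. So was Numb in wild type (0.0952 to 0.225), and nothing about the Notch pathway is read from its counts. Of 12 hedgehog pathway genes 7 were in the matrix, and 1 of 6 rose and 1 fell in each genotype. These were Boc, with 1.33 and 1.49, and Cdon, with -2.37 in each, both genes of hedgehog co-receptors. Boc was compared only through day 8 (0.0675 to 0.17 in Kmt2d+/βgeo, 0.0574 to 0.161 in wild type). Cdon was compared only through day 0 (0.108 to 0.0209 and 0.152 to 0.0293). No result about the pathway is read from these counts. Of 16 genes of the FGF and EGF receptors and their feedback 9 were in the matrix, and 1 rose and 3 fell in Kmt2d+/βgeo, 2 and 4 in wild type. The ETS factor genes Etv4 (-4.19 and -5.08) and Etv5 (-2.70 and -4.39), which FGF signalling turns on, fell most, and the receptor gene Fgfr3 rose by 1.74 and 1.78. Etv4 was compared only through day 0 (0.963 to 0.0528 in Kmt2d+/βgeo, 1.13 to 0.0333 in wild type). Fgfr2, 1 of the 2 that rose in wild type, was compared only through day 8 (0.0977 to 0.322). Nothing about this list is read from its counts. Median r with Sox9 was within 0.04 of 0 for these 3 lists.

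No gene from the lists of microglia, endothelium, pericytes and fibroblasts, or ependyma and choroid plexus was in the matrix rows used, so their part in the Sox9 levels was not tested.

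The genes whose 8 library levels lay closest to those of Sox9 were not among those with the highest r across cells, but most were low. Closeness was the root mean square difference of log2 means, each centred on its own average over the 8 libraries, and over 7420 genes its median was 0.77. Lowest were the ubiquitin ligase gene Rnf144a (0.15), the receptor scaffold gene Erbin (0.17), the actin-capping gene Tmod2 (0.18), the WD-repeat gene Wdr13 (0.19) and the double-stranded RNA receptor gene Tlr3 (0.20). Erbin went from 0.58 to 2.91 in Kmt2d+/βgeo and from 0.85 to 2.44 in wild type, in mean normalised count. Rnf144a ran from 0.079 to 0.298 over the libraries, Tlr3 from 0.086 to 0.446 and Wdr13 from 0.187 to 0.592. Across cells the median r of these 5 genes with Sox9 was between 0.01 and 0.09, highest for Erbin, where the 99th percentile over all genes was 0.13. The genes named above as highest by median r had mean levels from 6.70 (Lxn) to 146.5 (Apoe). Gja1, at a mean level of 1.46, had a median r of 0.19. The part of level in these r values was not tested. Rnf144a, Erbin and Tmod2 remained among the 5 closest without the day 4 libraries.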

How the data were processed

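The authors counted spliced molecules of 3′ tags with Alevin (Salmon 1.3.0) on GRCm38, removed outlying cells, likely doublets, mitochondrial genes and rarely seen genes, and deposited library-size normalised log2 values for 9140 genes and 30408 cells, with each cell's total UMIs as an estimated count in a deposited cell table. Library names in that table were matched to titles, 1 library per genotype and day, and 0 columns of per-sample values were left unused. A method to tell strands apart was not given in the sources used here.

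Log2 values were turned back to normalised counts. Each cell's most frequent value stood for 1 UMI, and 99.992% of nonzero Sox9 values and 86.8% of those of all genes lay within 0.01 of a whole number of UMIs. Estimated counts were rounded for sums and thinning. Ratios used genes with a mean of at least 0.1 in either library, and an absolute log2 ratio of at least 1 was called. A gene below 0.1 in the other library was thus compared through 1 library only, as Dner in Kmt2d+/βgeo was (0.0933 at day 0). Shares have Clopper-Pearson, sums exact Poisson and ratios exact conditional 95% intervals. No p-value was computed, as cells are not replicates. Cell-cycle position came from 450 genes (cyclone markers of scran 1.30.0, phase lists of Seurat 5.3.0 and Smc2), without the study's alignment. Scripts ran in Python 3.11.15 (numpy 2.4.6, scipy 1.17.1) and were tested on simulated data.

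Sox9 and the lists were chosen with earlier results of these data known. Named genes were Sox9, SOX genes, the 10 highest and 10 lowest by median r, the extremes of each library, the 5 closest by library level, a fixed set of glial and signalling genes, and up to 4 genes per list with the largest change. A gene this rule takes is not reported here. Luzp2, Acsl3, Glul and Fgfr2, and genes given in the closing section, fall outside it and were picked once their values were known. Alternatives changed the scale, depth, thinning, correlation measure, libraries and embedding.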

Additional observations from a re-analysis of the deposited data

Results flagged for a closer look

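The log2 ratio of Sox9, Kmt2d+/βgeo over wild type, had opposite signs at day 0 (-0.752) and day 4 (0.147). The difference between the days was not tested, and the day 4 value rests on a library that went against its label in Luzp2. At day 8 the direction was not settled, so no change of side between the genotypes is shown.

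Some listed genes had changes from day 0 to day 8 of opposite sign in the 2 genotypes, with counting intervals that excluded 0 in each. These differences were not tested, and 1 library stands behind each value. Log2 ratios are given for Kmt2d+/βgeo first and wild type second. Among gliogenic and progenitor genes they were 0.215 and -0.338 for Nfix, -0.148 and 0.31 for Id3, 0.24 and -0.161 for Dbx2, and 0.177 and -0.727 for Lifr. The sign for Nfix depended on the scale. Its mean log2 value went down in both genotypes, from 2.02 to 1.92 in Kmt2d+/βgeo and from 2.45 to 2.07 in wild type. Aldh1l1, a folate enzyme gene of astrocytes, had -0.329 and 0.229. Maml2, a Notch coactivator gene, had 0.15 and -0.566. Among receptor and feedback genes they were 0.521 and -0.0671 for Egfr, 0.15 and -0.0783 for Fgfr1, and 0.706 and -0.54 for Spry2. By mean log2 value Aldh1l1 and Egfr kept their signs, but Egfr was nearly level in Kmt2d+/βgeo (0.816 to 0.836). The remaining genes are not given on that scale. Kmt2d+/βgeo at day 8 was the shallowest library, and the part of depth in these values was not tested.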

How the results depend on the processing

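The day 8 difference of Sox9 between genotypes changed sign under every other scale, to -0.229 for mean log2 values, -0.0611 per total UMIs and -0.173 for thinned counts. The other 9 ratios kept their direction. As differences of mean log2 values they were 0.145, 1.03 and 1.42 for days 2, 4 and 8 over day 0 in Kmt2d+/βgeo, 0.0406, 0.431 and 1.17 in wild type, and -0.476 and -0.371 between genotypes at days 0 and 2. Per total UMIs the moved values were 1.37 and 2.08 (days 4 and 8, Kmt2d+/βgeo), 0.636 and 1.49 (wild type), and -0.651, -0.481 and 0.0869 between genotypes at days 0, 2 and 4. On thinned counts they were 1.90 for Kmt2d+/βgeo at day 8 and 0.101 between genotypes at day 4.

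Shares of cells with a Sox9 UMI depend on depth by construction. Thinned to 1500 UMIs they were 22.7%, 28.2%, 49.4% and 63.1% in Kmt2d+/βgeo and 35.0%, 36.5%, 47.0% and 66.5% in wild type on days 0, 2, 4 and 8. At 6000 UMIs they were 56.4%, 67.6%, 86.5% and 91.2%, and 73.0%, 77.6%, 87.3% and 96.5%. Cells below the target depth were left out, so the set of cells changed too. In Kmt2d+/βgeo 239 cells had 6000 or more matrix UMIs at day 8, against 3919 at day 0. At 1500 UMIs the gap in Sox9 share between wild-type day 0 cells with and without an Olig2 UMI was -1.45 points, against -4.54. Of the 10 highest genes by median r, 5 were shared without the day 4 libraries. Of the 10 lowest, 5 were shared by Spearman's rho, 6 on thinned counts and 5 without day 4. The cause was not tested.

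No paired analysis was possible because the groups compared, each 1 library, share fewer than 2 replicate numbers, and there was no replicate to leave out. A fit of genotype over the days was not run. The other 27 alternative values kept their direction and moved by at most 0.5 of the width of the counting interval or, for counts of shared genes, by at most 1.5 times. At day 8, 757 Kmt2d+/βgeo cells fell under 3000 UMIs, and the part of depth in the values there was not tested.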
